A study of Mus musculus with 32 samples.

Results

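The colony stimulating factors and their receptors were followed as 8 genes, chosen by family membership, with earlier results of these data known, out of 54446 genes in the count tables. They comprised the 4 ligand genes Csf1, Il34, Csf2 and Csf3 and the 4 receptor genes Csf1r, Csf2ra, Csf2rb and Csf3r. RNA sequencing had been done on 32 liver tumors formed by BNL-MEA cells, a mouse hepatocellular carcinoma line placed under the capsule of the liver of BALB/c mice. The tumors fell into 3 experiments, named here for what each compared. In the dose experiment, 4 tumors came from vehicle-treated mice, 3 from mice given regorafenib at 5 mg/kg/day and 3 from mice given it at 20 mg/kg/day by gavage. The DC-101 experiment had 4 vehicle tumors, 3 from mice given regorafenib at 5 mg/kg/day and 3 from mice given 800 μg doses of DC-101, an antibody to mouse VEGFR2. In the anti-PD1 experiment, 3 tumors each came from mice given vehicle, regorafenib at 5 mg/kg/day, an antibody to PD-1, or regorafenib at 5 mg/kg/day with that antibody, called the combination below. The samples were whole tumors in an immune-competent host, so tumor, stromal, immune and adjacent liver cells could all contribute RNA, and fewer cells of a type and less RNA per cell cannot be told apart. The labels number the libraries of a group without stating that each came from a separate mouse, and p-values measure the spread between these libraries.

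Colony stimulating factors are cytokines that direct the growth and survival of myeloid cells. CSF1 and IL-34 are alternative ligands of CSF1R, a receptor tyrosine kinase on which monocytes and most macrophages depend and which regorafenib, a multikinase inhibitor, targets. GM-CSF (Csf2) acts through a private alpha chain (Csf2ra) paired with the common beta chain (Csf2rb), which also serves IL-3 and IL-5, and G-CSF (Csf3) drives neutrophil production through its own receptor (Csf3r).

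RefSeq promoter entries matched 4 of the 8 members, Csf1, Csf2, Csf2ra and Csf3r, and the neighbor gene Csf2rb2, and did not match Csf1r, Csf2rb, Csf3 or Il34. The bases upstream of the transcription start are shown for Csf2ra and Csf1, which were picked after their changes were seen, as a receptor gene that fell at 20 mg/kg/day and the ligand of CSF1R, which did not pass the test there. Both are RefSeq promoters on GRCm38.p6, 250 bases each, read 5′ to 3′ on the minus strand (Csf2ra chr19:61228419-61228668, of which 11 bases lie inside the Gencode gene, and Csf1 chr3:107760470-107760719). Capitals mark GAGGAA or its reverse complement TTCCTC, a core bound by PU.1, the myeloid transcription factor encoded by Spi1.
Csf2ra: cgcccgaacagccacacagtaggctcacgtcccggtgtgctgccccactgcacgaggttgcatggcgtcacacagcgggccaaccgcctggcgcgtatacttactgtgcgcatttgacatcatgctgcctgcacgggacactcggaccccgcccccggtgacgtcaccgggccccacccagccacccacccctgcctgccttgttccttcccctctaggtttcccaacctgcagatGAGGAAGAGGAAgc
Csf1: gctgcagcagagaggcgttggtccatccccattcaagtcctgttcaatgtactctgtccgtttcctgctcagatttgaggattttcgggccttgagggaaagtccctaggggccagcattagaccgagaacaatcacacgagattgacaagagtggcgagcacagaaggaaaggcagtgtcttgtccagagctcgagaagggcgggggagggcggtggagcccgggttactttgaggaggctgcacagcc
Csf2ra held 2 adjacent copies of the core, which began 14 and 8 bases before the start, so that the second and part of the first lie inside the Gencode gene, and the Csf1 and Csf2 windows held none. Csf3r and Csf2rb2, which did not pass the test at 20 mg/kg/day, each held 1 copy, beginning 86 and 167 bases before the start. Of the Csf3r window, 109 bases, this copy included, lie inside the Gencode gene. Of 32851 promoters of this length, 23.3% held the core on either strand. The GC box GGGCGG, searched on both strands, occurred 2 times in Csf1 and 1 time in Csf2ra and in 32.7% of all promoters, and the C/EBP motif TTNNGNAAT occurred in neither window and in 10.2% of all promoters.

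The genes were located on GRCm38 with Gencode coordinates, and all are protein coding. Csf1 (ENSMUSG00000014599.10) lies at chr3:107741048-107760469 on the minus strand and Il34 (ENSMUSG00000031750.15) at chr8:110741829-110805924 on the minus strand. Csf2 (ENSMUSG00000018916.5) lies at chr11:54247271-54249667 on the minus strand and Csf3 (ENSMUSG00000038067.2) at chr11:98701263-98703629 on the plus strand. The receptor genes are Csf1r (ENSMUSG00000024621.15) at chr18:61100598-61132149 on the plus strand, Csf2ra (ENSMUSG00000059326.6) at chr19:61223957-61228429 on the minus strand, Csf2rb (ENSMUSG00000071713.6) at chr15:78325752-78353847 on the plus strand and Csf3r (ENSMUSG00000028859.14) at chr4:126024550-126044440 on the plus strand. Annotated genes on the opposite strand overlap Il34 (Gm15894 and Gm15895), Csf2 (Gm12223) and the 3′ end of Csf1r (Hmgxb3). Which strand column was deposited is not stated, so how reads in these overlaps were assigned or set aside is not known. Csf2rb has a close neighbor, Csf2rb2 (chr15:78282507-78305721, minus strand), the beta chain specific to the IL-3 receptor in mice, and the pair shared 334 windows of 100 bases, 4.6% of those of Csf2rb and 6.8% of those of Csf2rb2, so their counts are uncertain to that extent.

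Levels were compared between genes as TPM, which divides counts by exon length. Csf1 and Csf1r were the most abundant members, with median levels of 281 TPM (range 44.7 to 463) and 271 TPM (31.5 to 515) over the 32 tumors. Their order was not fixed, since Csf1 was above Csf1r in 11 of 32 tumors. Csf2ra followed at a median of 40.9 TPM (7.27 to 85.6) and lay under Csf1r in all 32 tumors, by a median ratio of 6.69. Csf3r, Csf2rb and Il34 had medians of 24.3, 23.8 and 20.0 TPM, and these neighbors overlapped, with Csf3r above Csf2rb in 18 of 32 tumors and Csf2rb above Il34 in 21 of 32. Between the ligands of CSF1R, Csf1 was above Il34 in all 32 tumors, by a median ratio of 12.7 (4.43 to 22.1). Csf2ra exceeded Csf2rb, its partner chain, in 31 of 32 tumors by TPM, and Csf2rb2 had a median of 21.9 TPM. This order depends on the length used, the union of all annotated exons, 2871 bases for Csf2ra and 7277 for Csf2rb. By reads Csf2rb was higher, with a median count of 1362.5 against 898. Which transcripts were expressed was not determined. The ligands Csf3 and Csf2 were near the limit of detection, at medians of 0.532 and 0.139 TPM.

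**Figure D1:**
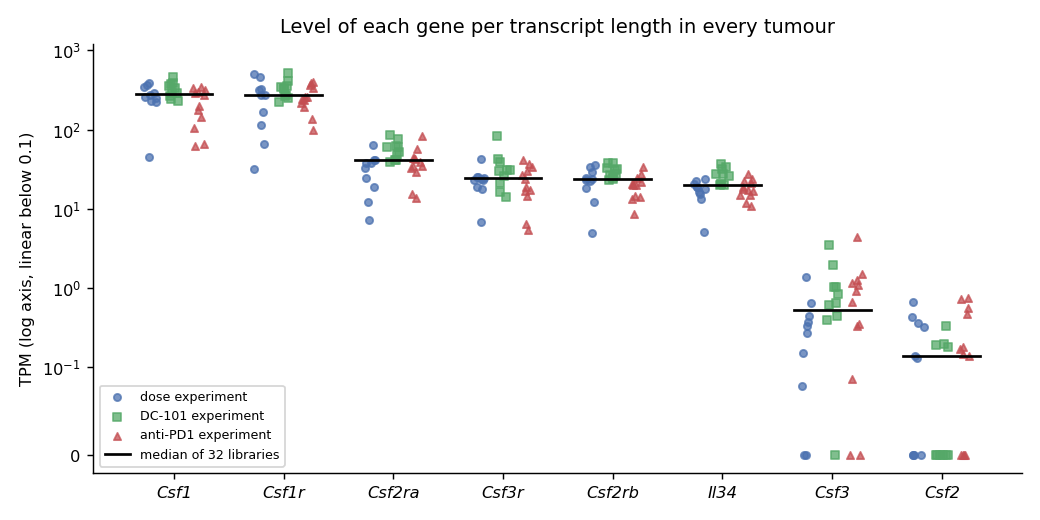
TPM of the 8 genes in each of 32 tumors (points, colored by experiment) with the median (line), on a log axis that is linear below 0.1. Csf1 and Csf1r have medians of 281 and 271 TPM, the other 3 receptors and Il34 lie between 20.0 and 40.9 TPM, and Csf3 and Csf2 have medians under 1 TPM.

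Total counts were between 16.8 M and 27.7 M per library. Lists of genes that mark a cell type were summarized by their mean level. The mean of the hepatocyte list was between 0.57 and 12.09 log2 CPM over the tumors, that of the macrophage list between 5.56 and 8.43 and that of the fibroblast list between 7.30 and 9.36. All further levels and changes are on the log2 CPM scale, read counts scaled to the library total after TMM scaling within an experiment, with a prior count of 2. Changes are given with their standard error (SE) from edgeR's quasi-likelihood test, and adjusted p-values are Benjamini-Hochberg values over every gene tested, with 0.05 as the threshold. Csf1, Il34, Csf1r, Csf2ra, Csf2rb and Csf3r were tested in every comparison, Csf3 passed the filter on low counts in the anti-PD1 experiment only, and Csf2 passed it in none.

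Csf1r and Csf2ra were lower at 20 mg/kg/day of regorafenib in the dose experiment, and no other member passed the test. Csf1r, the receptor kinase for CSF1 and IL-34, was at 8.94, 8.24, 9.25 and 9.08 log2 CPM in the vehicle tumors, at 9.78, 9.77 and 9.39 at 5 mg/kg/day and at 6.75, 7.86 and 6.85 at 20 mg/kg/day. All 3 tumors at 20 mg/kg/day lay under all 7 other tumors of the experiment. Against vehicle this was a change of -1.68 (SE 0.33), or 3.2-fold lower, with an adjusted p of 0.0308. Against 5 mg/kg/day the change was -2.41 (SE 0.36), or 5.31-fold lower, with an adjusted p of 0.0128. Csf2ra, the alpha chain of the GM-CSF receptor, was at 5.21, 4.47, 5.17 and 5.20 log2 CPM with vehicle, at 5.80, 5.29 and 5.09 at 5 mg/kg/day and at 3.64, 4.25 and 3.44 at 20 mg/kg/day, again with no overlap between 20 mg/kg/day and either other group. Of the genes with over 0 log2 CPM in at least 3 libraries of an experiment, a separation downward was found for 17.7% against vehicle and 17.3% against 5 mg/kg/day. Csf2ra changed by -1.23 (SE 0.28, adjusted p = 0.0356) against vehicle and by -1.61 (SE 0.29, adjusted p = 0.0254) against 5 mg/kg/day. These were 2 of the 6 members tested in each comparison, beside 15.6% of 16525 genes called against vehicle and 4.22% against 5 mg/kg/day. The 2 comparisons share the 20 mg/kg/day tumors.

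**Figure D2:**
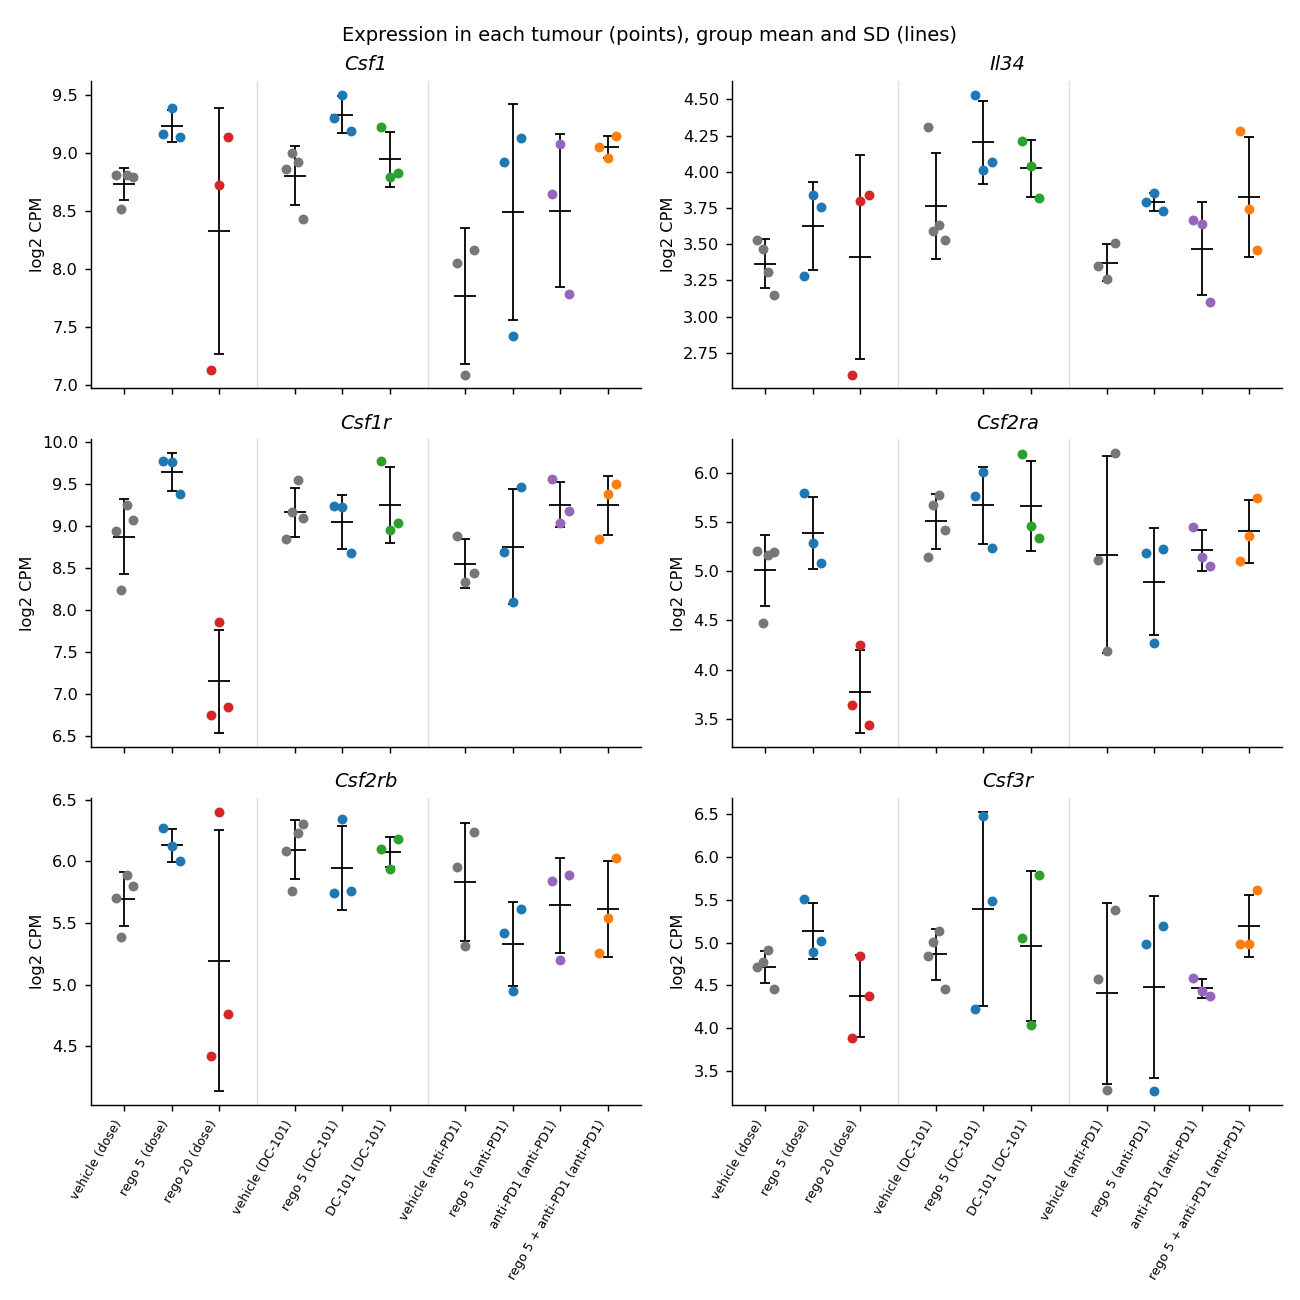
Log2 CPM of 6 members in each tumor (colored points), with the group mean (bar) and SD (whiskers), for the 3 experiments separated by grey lines. For Csf1r and Csf2ra all 3 tumors at 20 mg/kg/day (red) lie under the 4 vehicle tumors of the dose experiment, while for Csf2rb the red points span 4.42 to 6.40.

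The other receptors and the ligands of CSF1R did not pass the test at 20 mg/kg/day, and their tumors in that group were spread widely. Csf2rb was at 5.70, 5.39, 5.89 and 5.80 log2 CPM with vehicle and at 4.42, 6.40 and 4.76 at 20 mg/kg/day, so that 1 tumor lay above every vehicle tumor and the other 2 below every one. Its change against vehicle was -0.23 (SE 0.41, adjusted p = 0.695). Csf2rb2 had the same order of tumors, at 3.42, 6.15 and 4.40 log2 CPM at 20 mg/kg/day, and a change of 0.04 (SE 0.51, adjusted p = 0.959). Without replicate 2 at 20 mg/kg/day the change of Csf2rb was -1.10 against vehicle (adjusted p = 0.0314) and -1.54 against 5 mg/kg/day (adjusted p = 0.0073). With single libraries left out, up to 41.1% of all genes were called against vehicle and up to 26.3% against 5 mg/kg/day. The lowest such shares were 0.091% and 0.361%. Csf3r was at 3.89, 4.85 and 4.38 log2 CPM at 20 mg/kg/day and between 4.46 and 4.91 with vehicle, a change of -0.29 (SE 0.25, adjusted p = 0.392), and its groups at 5 and 20 mg/kg/day did not overlap (change -0.74, SE 0.26, adjusted p = 0.115). Csf1 was at 7.13, 8.72 and 9.14 log2 CPM at 20 mg/kg/day and between 8.52 and 8.81 with vehicle, and its change was -0.19 (SE 0.37, adjusted p = 0.730). Il34 was at 2.60, 3.80 and 3.84 log2 CPM at 20 mg/kg/day and between 3.15 and 3.53 with vehicle, a change of 0.15 (SE 0.30, adjusted p = 0.735).

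The calls at 20 mg/kg/day rested on few tumors. Replicate 1 of that group had the lowest Csf1r, Csf2rb, Csf2rb2, Csf1, Il34 and Csf3r levels of the dose experiment, a TMM factor of 0.678, 5.37% of its counts in mitochondrial genes and the highest mean level of the 20 hepatocyte list genes, 12.09 log2 CPM against 9.72 and 7.02 in the other 2 tumors and 5.09 to 8.13 with vehicle. The part of the scaling factor and the mitochondrial share in the result was not tested apart from leaving the tumor out. Without this tumor the change against vehicle was -1.48 for Csf1r (adjusted p = 0.0426) and -1.14 for Csf2ra (adjusted p = 0.0655). Leaving out any 1 of the 4 vehicle tumors, or replicate 1 or 2 at 5 mg/kg/day, raised the adjusted p for Csf1r to between 0.0531 and 0.0841 and for Csf2ra to between 0.0568 and 0.0914, while their changes stayed between -1.84 and -1.17. The share of all genes called against vehicle moved between 0.091% and 41.1% when single libraries were left out. Against 5 mg/kg/day, Csf1r was not called without replicate 1 or 2 at 5 mg/kg/day (adjusted p = 0.0676 and 0.0595), and Csf2ra was not called without either of these (adjusted p = 0.117 and 0.0921) or without vehicle replicate 1 or 3 (adjusted p = 0.0501 and 0.0503). With the hepatocyte list as a covariate the changes against vehicle were -1.53 for Csf1r (adjusted p = 0.105) and -1.13 for Csf2ra (adjusted p = 0.148), and both genes were still called against 5 mg/kg/day (-2.31 and -1.54). With the replicate number as a block neither was called, at -1.68 and -1.17 against vehicle (adjusted p = 0.192 for both) and -2.44 and -1.58 against 5 mg/kg/day (adjusted p = 0.133 and 0.157). With no filter on low counts Csf2ra was at -1.26 against vehicle (adjusted p = 0.0557).

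**Figure D3:**
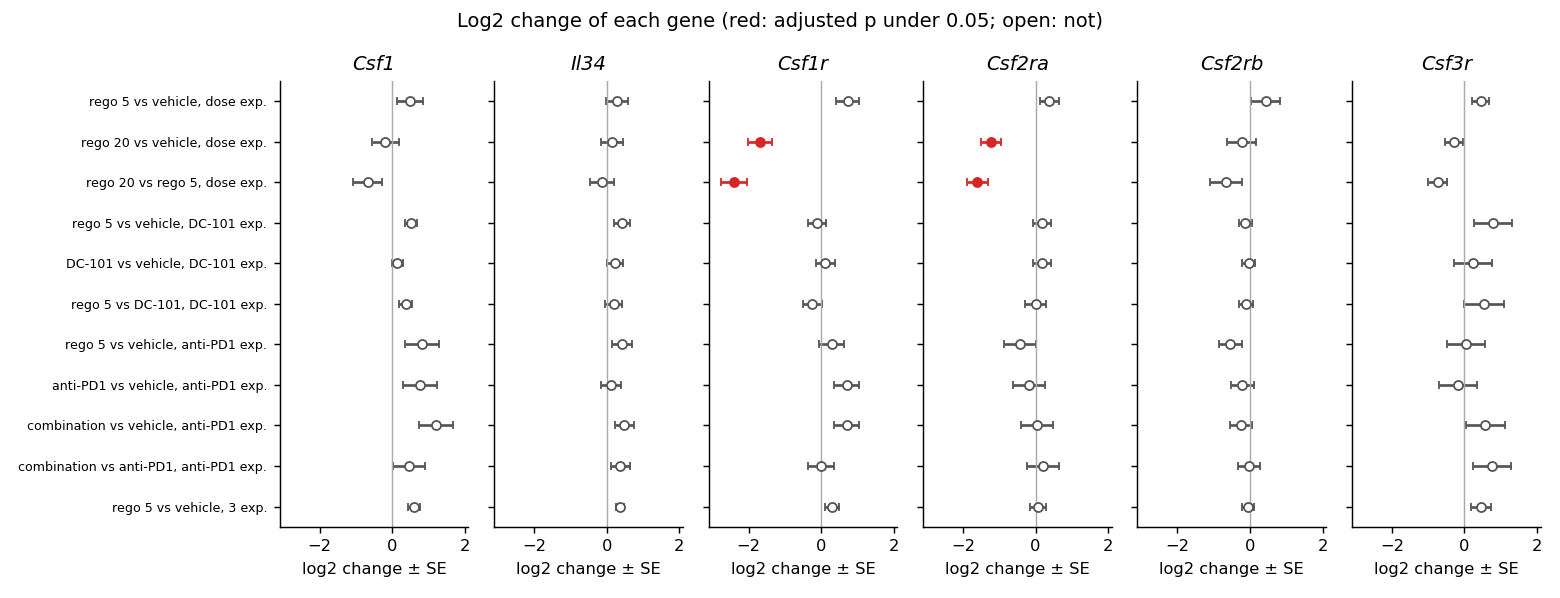
Log2 change with its SE for 6 members (panels) in 10 comparisons and in the fit over the 3 experiments (rows, where rego 5 and rego 20 are regorafenib in mg/kg/day). Only Csf1r and Csf2ra at 20 mg/kg/day are filled red, at -1.68 and -1.23 against vehicle and -2.41 and -1.61 against 5 mg/kg/day.

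Macrophage genes were lower as well at 20 mg/kg/day. Of 17 macrophage list genes, which did not include Csf1r, 11 fell and none rose against vehicle, with a median change of -1.25 beside 0.02 over all genes tested, and 12 fell against 5 mg/kg/day, with a median of -2.04 beside 0.07. The mean of the list was between 6.88 and 7.49 log2 CPM with vehicle, between 7.75 and 8.05 at 5 mg/kg/day and at 5.56, 6.67 and 5.94 at 20 mg/kg/day, and none of its genes was at 0 in a whole group. The number lower against vehicle was 0 without vehicle replicate 3 or 4, 1 without replicate 1, 2 without replicate 2, 2 and 4 without replicates 1 and 2 at 5 mg/kg/day, and 7 without replicate 1 at 20 mg/kg/day. Against 5 mg/kg/day it was 5 without replicate 1 or 2 at that dose. The monocyte gene Ccr2, a chemokine receptor, changed by -3.05 (SE 0.45, adjusted p = 0.017), Plac8 changed by -1.09 (SE 0.28, adjusted p = 0.0421), and the other 3 tested genes of the monocyte list did not pass. Of the 5 tested monocyte genes 2 had a positive change, and the list median was -0.95. Of 15 neutrophil list genes tested, Trem1, a receptor that amplifies inflammatory signals, was the single one to fall, by 3.83 on the log2 scale (SE 0.42, adjusted p = 0.0109), and the list median was -0.51. None of 6 Kupffer cell list genes and none of 10 fibroblast list genes passed, with medians of 1.08 and -0.31. Among the other cells of the tumor, 7 of 11 T and NK cell list genes rose (median 1.77), 2 of 11 dendritic cell genes rose (Ccl22 and Ccr7) and 1 fell (Itgax), 3 of 10 endothelial genes fell (Emcn, Cldn5 and Flt1) and 2 of 20 hepatocyte genes rose (Hpd and Cyp2e1, list median 3.65). Over all 16525 genes tested, 1455 rose and 1127 fell against vehicle, so the share of hepatocyte genes called higher was near that of all genes. All 20 hepatocyte genes had a positive change, though, and 18 had an unadjusted p under 0.05 in edgeR's test, beside 40.1% of all genes. The single marker genes named here were chosen after their values were seen. Their calls and the counts of the other cell type lists were not followed under other settings, and the share of all genes called was as low as 0.091% when 1 library was left out.

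Csf1r was then set against the macrophage list within each tumor. The difference between Csf1r and the mean of the list, a measure chosen after seeing the data, was 1.59, 1.37, 1.77 and 1.84 log2 units with vehicle, 1.73, 1.90 and 1.64 at 5 mg/kg/day and 1.20, 1.19 and 0.91 at 20 mg/kg/day. All 3 tumors at 20 mg/kg/day lay under all other tumors of the experiment. The mean at 20 mg/kg/day differed by -0.54 from vehicle and by -0.65 from 5 mg/kg/day, and the mean at 5 mg/kg/day by 0.11 from vehicle. These are given as a description, with no test.

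**Figure D4:**
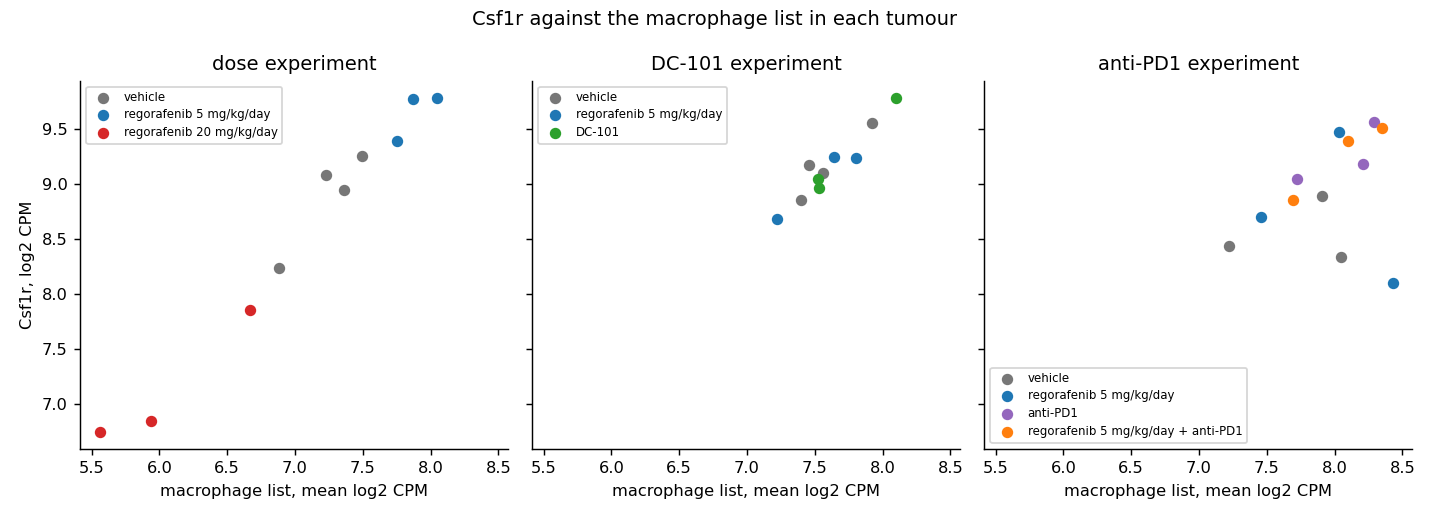
Csf1r (vertical axis, log2 CPM) against the mean log2 CPM of 17 macrophage list genes (horizontal axis) in each tumor, by experiment, colored by treatment. In the dose experiment the 3 tumors at 20 mg/kg/day lie at the lower left (list mean 5.56 to 6.67), and in the anti-PD1 experiment 1 regorafenib tumor has the highest list mean, 8.43, and the lowest Csf1r level, 8.10.

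Genes that act downstream of CSF1R were in part lower as well. Of 18 genes of a CSF1R signaling list, 5 fell and none rose at 20 mg/kg/day against vehicle, with a list median of -0.43, beside 1127 of all 16525 genes that fell and 1455 that rose. Among these, Tyrobp, an adaptor of myeloid receptors, changed by -1.42 (SE 0.29, adjusted p = 0.0313) and Inpp5d, the lipid phosphatase SHIP1, by -1.51 (SE 0.32, adjusted p = 0.0324). Ptpn6 (-0.80) and Plcg2 (-1.72), named after their values were seen, were also lower. Against 5 mg/kg/day 6 of the 18 fell, beside 409 of the 16525. Without 1 of vehicle replicates 1, 3 and 4 no gene of the list was called against vehicle, and without vehicle replicate 2 or replicate 1 or 2 at 5 mg/kg/day 1 was. Against 5 mg/kg/day 1 gene was called without replicate 1 or 2 at that dose. Tyrobp and Inpp5d were not called without any single vehicle tumor or replicate 1 or 2 at 5 mg/kg/day (adjusted p 0.0505 to 0.0872), with the hepatocyte covariate (-1.21 and -1.30, adjusted p = 0.114 and 0.127) or with the replicate block (-1.38 and -1.53, adjusted p = 0.192 for both). These genes are also expressed by other blood cells.

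The genes on the other sides of the network were called in both directions at 20 mg/kg/day, beside 15.6% of all genes called. Of 15 tested genes that signal for the beta common chain and the G-CSF receptor, Lyn, a Src family kinase, fell (-1.17, SE 0.32, adjusted p = 0.0449) and the median was 0.04. Stat5b (1.14, SE 0.35, adjusted p = 0.052) and Cish (1.75, SE 0.55, adjusted p = 0.0554), an inducible inhibitor of STAT5 signaling, did not pass. Of 9 tested inducers of CSF genes, Il1b, the inflammatory cytokine IL-1β, fell (-2.75, SE 0.36, adjusted p = 0.0143) and so did Nfkb1 (-0.47, SE 0.13, adjusted p = 0.0467), with a median of -0.07. These calls depended on the tumors and settings used. Lyn was not called without any single vehicle tumor, replicate 1 or 2 at 5 mg/kg/day or replicate 2 at 20 mg/kg/day (adjusted p 0.0606 to 0.101), with no filter (change -1.21, adjusted p = 0.0641), with the hepatocyte covariate (-1.69, adjusted p = 0.0584) or with the replicate block (-1.27, adjusted p = 0.192). Over all single libraries left out, the change of Lyn was from -1.44 to -0.87. Nfkb1 was not called without any single library other than replicate 3 at 20 mg/kg/day (adjusted p 0.0655 to 0.118), under limma-voom (-0.48, adjusted p = 0.0521), RLE scaling (-0.44, adjusted p = 0.0557) or no filter (-0.49, adjusted p = 0.0968), with the hepatocyte covariate (-0.29, adjusted p = 0.313) or with the replicate block (-0.50, adjusted p = 0.199). Il1b was not called without vehicle replicate 3 (-2.65, adjusted p = 0.0516) or with the replicate block (-2.96, adjusted p = 0.188). Among 11 tested myeloid transcription factors 3 fell and 1 rose, with a median of -0.27: Spi1 (-1.46, SE 0.27, adjusted p = 0.0269), Irf5 (-1.02) and Egr2 (-1.29) were lower and Cebpa, also a hepatocyte factor, was higher (1.98). Among 8 class III receptor tyrosine kinases and ligands, the family of CSF1R, Pdgfa was lower (-1.19) and Flt3l higher (1.76), with a median of -0.68. The transcription factors, Pdgfa and Flt3l were named after their values were seen, and their calls were not followed under other settings. Sdc1, the syndecan that binds IL-34 and the single tested gene of the IL-34 alternative receptors, was at -0.56 and did not pass.

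Regorafenib at 5 mg/kg/day gave no member past the threshold in any experiment or in the fit over all 3. In the dose experiment none of 6 members passed edgeR's test, beside 0.0% of 16525 genes, and 1 of 6 (Csf1r) had an unadjusted p under 0.05, beside 4.94% of all genes, while DESeq2 and limma-voom also called 0. Csf1r was 0.73 higher (SE 0.31, adjusted p = 0.989) and its 3 tumors lay above all 4 vehicle tumors, as did those of Csf1 (9.16, 9.39 and 9.14 against 8.81, 8.52, 8.81 and 8.79 log2 CPM) and of Csf2rb (6.27, 6.12 and 6.0). Such a separation upward was found for 7.23% of genes. In the DC-101 experiment none of 6 members passed, beside 0.0248% of 16138 genes, and 1 of 6 (Csf1) had an unadjusted p under 0.05, beside 17.1% of all genes. DESeq2, which called 6.8% of all genes there, called Csf1 (adjusted p = 0.029) and limma-voom did not. In the anti-PD1 experiment none of 7 members passed and none had an unadjusted p under 0.05, beside 0.0% of 16615 genes called, and DESeq2 and limma-voom also called 0.

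Csf1 was the member with the smallest p at 5 mg/kg/day over the 3 experiments. With vehicle it was at 8.86, 9.0, 8.92 and 8.43 log2 CPM in the DC-101 experiment and with regorafenib at 9.30, 9.50 and 9.19, without overlap, as for 6.96% of genes upward, a change of 0.52 (SE 0.16, adjusted p = 0.178). In the anti-PD1 experiment Csf1 was at 8.05, 7.09 and 8.16 with vehicle and at 8.92, 7.42 and 9.13 with regorafenib, and these groups overlapped (change 0.82, SE 0.46, adjusted p = 0.526). Over the 3 experiments the change was 0.60 (SE 0.17), with an unadjusted p of 0.00275 and an adjusted p of 0.0834, and none of 6 members passed beside 1.77% of 15562 genes. Csf1 did pass in the same fit without replicate 2 given regorafenib in the anti-PD1 experiment (0.68, adjusted p = 0.0145) and under DESeq2 (adjusted p = 0.0215), which called 5.73% of all genes. Without the anti-PD1 experiment the change was 0.50 (adjusted p = 0.0143). In this fit 1.01% to 1.99% of all genes were called with single libraries left out, and 0.108% to 5.73% under the other settings.

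Il34, the second ligand of CSF1R, was positive in all 7 comparisons of a treatment with its vehicle, from 0.12 to 0.49, and passed in none. At 20 mg/kg/day it was at -0.02 with the replicate block and at -0.08 without replicate 3 of that group. These comparisons share vehicle tumors within an experiment. At 5 mg/kg/day Il34 was at 3.79, 3.85 and 3.73 log2 CPM in the anti-PD1 experiment against 3.35, 3.26 and 3.51 with vehicle, without overlap, beside 6.77% of genes that separated upward there. In the DC-101 experiment it was at 4.53, 4.01 and 4.07 against 4.31, 3.59, 3.63 and 3.53, and in the dose experiment at 3.28, 3.84 and 3.76 against 3.53, 3.47, 3.31 and 3.15. Over the 3 experiments the change was 0.37 (SE 0.12, adjusted p = 0.121), and under DESeq2 the adjusted p was 0.046.

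At 5 mg/kg/day 3 of the 4 receptors had changes of both signs among the experiments, and none passed in any. Csf1r was at 0.73 in the dose experiment, at -0.12 (SE 0.25) in the DC-101 experiment and at 0.29 (SE 0.35) in the anti-PD1 experiment, and over the 3 experiments at 0.31 (SE 0.19, adjusted p = 0.442). Csf2ra was at 0.38, 0.18 and -0.44 in that order and at 0.07 (SE 0.22) over all. Csf2rb was at 0.43, -0.13 and -0.54 and at -0.06 (SE 0.16) over all, and of the 6 members it had the smallest p in the test of a difference between experiments (unadjusted p = 0.0273, adjusted p = 0.478). In that test none of 6 members passed, beside 0.0% of genes. Csf3r was at 0.45, 0.79 and 0.05 and at 0.45 (SE 0.28, adjusted p = 0.462) over all. Its tumors at 5 mg/kg/day in the DC-101 experiment were the most spread of that experiment, at 4.22, 6.48 and 5.49 log2 CPM.

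The genes around the network at 5 mg/kg/day were called in single cases in the fit over the 3 experiments. Of the CSF1R signaling list, Ptpn6, the phosphatase SHP-1 that restrains CSF1R signaling, rose by 0.59 (SE 0.13, adjusted p = 0.029) and the list median was 0.10, beside 0.03 over all genes. Of the beta common and G-CSF receptor list, Bcl2l1, which encodes the survival protein BCL-XL, rose by 0.39 (SE 0.10, adjusted p = 0.0469), with a median of -0.05. Neither call held without the dose or the DC-101 experiment, where the adjusted p was 0.239 and 0.119 for Ptpn6 and 0.429 and 0.532 for Bcl2l1, and Ptpn6 was at 0.0744 without the anti-PD1 experiment. Both calls were also lost with the replicate number as a block. Bcl2l1 was not called without any single vehicle or regorafenib library of the dose or DC-101 experiment that entered this fit, or without vehicle replicate 1 or regorafenib replicate 3 of the anti-PD1 experiment (adjusted p 0.0622 to 0.0991). Ptpn6 was not called without regorafenib replicate 1 or 2 of the dose experiment, vehicle replicate 4 or regorafenib replicate 1 or 2 of the DC-101 experiment, or vehicle replicate 2 or regorafenib replicate 3 of the anti-PD1 experiment (adjusted p 0.0505 to 0.0662). Tnf, an inducer of CSF genes, had a change of 1.22 (SE 0.32, adjusted p = 0.0553), and none of 9 tested inducers passed. Sdc1 fell by 0.66 on the log2 scale (SE 0.11, adjusted p = 0.00247) and Kit, of the class III family, by 1.09 (SE 0.26, adjusted p = 0.0361). Of the marker lists, 2 of 17 macrophage genes rose (Cd14 and Fcgr1, list median 0.23), Ccr2 rose among 5 monocyte genes (1.04), Ass1 rose among 20 hepatocyte genes (0.93) and 8 of 10 endothelial genes fell (median -1.23). No gene of the Kupffer cell, neutrophil, dendritic cell, T and NK cell, fibroblast or myeloid transcription factor lists passed, with medians of 0.40, -0.20, 0.65, 0.66, -0.24 and 0.20. Over all 15562 genes tested, 114 rose and 162 fell. Sdc1, Kit and the single marker genes were named after their values were seen, and their calls were not followed under other settings.

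DC-101, the antibody that blocks VEGFR2, gave no member past the threshold, no member had an unadjusted p under 0.05, and DESeq2 and limma-voom called 0. The 6 changes against vehicle were between -0.03 (Csf2rb, SE 0.18) and 0.24 (Csf3r, SE 0.52), beside 0.0% of 16138 genes called and 13.2% at an unadjusted p under 0.05. Csf1r was at 8.85, 9.17, 9.55 and 9.10 log2 CPM with vehicle and at 9.78, 8.96 and 9.04 with DC-101, and the groups overlapped. Set directly against DC-101, regorafenib at 5 mg/kg/day gave changes between -0.24 (Csf1r, SE 0.27) and 0.54 (Csf3r, SE 0.56), none past the threshold and none with an unadjusted p under 0.05, beside 0.0% of genes called. Csf1 was at 0.37 in that comparison (SE 0.18, unadjusted p = 0.0628, adjusted p = 0.612). The hepatocyte list mean was 0.57 to 7.15 log2 CPM with vehicle, 6.16 to 9.39 with regorafenib and 2.26 to 10.04 with DC-101. With this list as a covariate no member passed in the DC-101 experiment, and Csf2rb was at 0.04 with DC-101.

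Anti-PD1 and the combination left all 7 tested members short of the threshold, and of these 1 (Csf1, with the combination) had an unadjusted p under 0.05, beside 8.2% of all genes with the combination and 13.7% with anti-PD1. DESeq2 and limma-voom called 0 members in these comparisons. Csf1 was at 9.05, 8.96 and 9.15 log2 CPM with the combination, all above the vehicle tumors at 8.05, 7.09 and 8.16, a change of 1.21 (SE 0.46, unadjusted p = 0.0223, adjusted p = 0.538). Of all genes 9.9% separated upward in this comparison and 0.0% were called. With anti-PD1 alone Csf1 was at 8.65, 9.08 and 7.78 (change 0.76, SE 0.46, adjusted p = 0.492). Csf1r was at 8.89, 8.34 and 8.44 log2 CPM with vehicle, at 9.56, 9.04 and 9.18 with anti-PD1 and at 8.85, 9.39 and 9.51 with the combination. Its change was 0.70 (SE 0.35) in both comparisons, with adjusted p-values of 0.404 and 0.639, and the anti-PD1 tumors lay above the vehicle tumors beside 7.72% of genes that did so and 0.0% called. With the hepatocyte list as a covariate the change with anti-PD1 was -0.20 (adjusted p = 0.881). Csf2ra was spread in the vehicle group, at 5.12, 4.19 and 6.20, and its changes were -0.17 with anti-PD1 and 0.03 with the combination (SE 0.44 each). Replicate 2 of the vehicle group and of the regorafenib group had 0.26% and 0.31% of counts in mitochondrial genes and TMM factors of 0.931 and 0.867. Each had the lowest Csf1, Csf1r, Csf2ra, Csf2rb and Csf3r levels of its group. Csf2rb changes were -0.21 and -0.24 (SE 0.31 each). Against anti-PD1 alone the combination gave changes between -0.03 (Csf2rb) and 0.77 (Csf3), none past the threshold and none with an unadjusted p under 0.05, beside 0.0% called. Csf3r there was at 4.99, 4.98 and 5.62 log2 CPM with the combination and at 4.59, 4.43 and 4.38 with anti-PD1, without overlap, as for 16.3% of genes upward (change 0.76, SE 0.53, adjusted p = 0.739). Mitochondrial genes held 2.34%, 1.43% and 1.36% of the counts with the combination and 0.68%, 0.52% and 0.37% with anti-PD1. The part of the mitochondrial share in the changes of this experiment was not tested. The hepatocyte list mean was 8.18 to 8.59 log2 CPM with vehicle, 5.06 to 7.49 with regorafenib, 4.91 to 6.49 with anti-PD1 and 6.89 to 9.60 with the combination. With this list as a covariate no member passed, and against vehicle Csf1r and Csf3r were at -0.46 and -0.48 with regorafenib and Csf2ra at -0.09 with the combination.

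The ligand genes Csf2 and Csf3 gave few reads. Csf2, which encodes GM-CSF, had between 0 and 5 counts, 0 in 14 of 32 libraries and over 3 in 3 of 32. The 2 libraries with 5 counts were combination tumors, and the third such tumor had 0. A count of 0 allows up to 3 counts, or 0.108 to 0.179 CPM at these depths. Csf2 did not pass the filter and was not tested, and small differences could not be seen at such counts. Csf3, which encodes G-CSF, had between 0 and 43 counts, 0 in 5 libraries and over 3 in 23. The highest count, 43, was in 1 of 3 vehicle tumors of the anti-PD1 experiment, beside 4 and 0 in the others, and the next highest, 32, was in a regorafenib tumor of the DC-101 experiment, beside 19 and 5. In the anti-PD1 experiment the Csf3 changes against vehicle were -1.09 (SE 1.29) with regorafenib, -1.24 (SE 1.31) with anti-PD1 and -0.47 (SE 1.24) with the combination, none past the threshold, and each rested on the vehicle tumor with 43 counts: without it they were 1.82, 1.66 and 2.44. The limit set by a count of 0 covers counting error only.

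**Figure D5:**
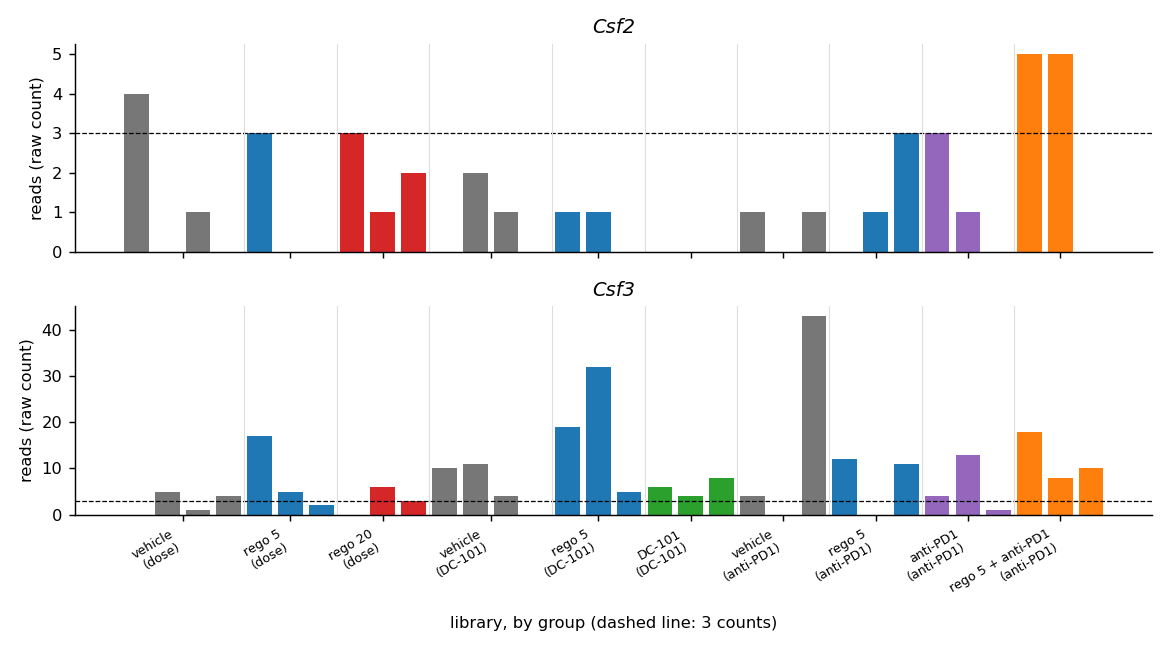
Raw read counts of Csf2 (top) and Csf3 (bottom) in each of 32 libraries, grouped by treatment and experiment, with a dashed line at 3 counts. Csf2 reaches at most 5 counts, and Csf3 reaches 43 in 1 vehicle tumor of the anti-PD1 experiment.

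Across tumors, 8 relations between a member and a cell type list or its ligand were computed on log2 CPM over 32 libraries, each value centered on its experiment's mean, with permutations within experiments and Benjamini-Hochberg adjustment over the 8. Csf1r followed the macrophage list (Pearson r = 0.87, adjusted permutation p = 8e-05, the smallest these permutations allow; Spearman rho = 0.79, adjusted permutation p = 0.00016). Its r was 0.76 without the 2 libraries farthest from the median of the list, 0.99 within the dose experiment, 0.96 within the DC-101 experiment and 0.32 within the anti-PD1 experiment, and 0.59 when values were centered on each group, which takes out the separation of the 20 mg/kg/day tumors. Csf2rb had r = 0.58 with the macrophage list (adjusted permutation p = 0.018; rho = 0.42, adjusted permutation p = 0.06), but 0.23 without the 2 libraries farthest from the median of the list. It was 0.83 within the dose experiment, 0.49 within the DC-101 experiment and -0.14 within the anti-PD1 experiment, so the pooled relation rested in large part on those 2 libraries and did not hold in every experiment. With the neutrophil list Csf2rb had r = 0.04 (rho = 0.10), with adjusted permutation p-values of 0.88 and 0.65, and r was -0.47, -0.19 and 0.61 within the experiments in the same order. Csf3r, the receptor carried by neutrophils, had r = 0.37 with the neutrophil list (adjusted permutation p = 0.082; rho = 0.31, adjusted permutation p = 0.18) and was at -0.50 within the dose experiment, 0.59 within the DC-101 experiment and 0.41 within the anti-PD1 experiment.

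Ligand and receptor genes were correlated for CSF1 and for G-CSF. Csf1r had r = 0.56 with Csf1 (adjusted permutation p = 0.0026; rho = 0.55, adjusted permutation p = 0.0031), which was 0.64, 0.24 and 0.69 within the experiments in the order above and 0.37 without the 2 farthest libraries. Csf3r had r = 0.68 with Csf3 (adjusted permutation p = 0.00028; rho = 0.61, adjusted permutation p = 0.0023), with 0.63, 0.50 and 0.82 within the experiments and 0.66 without the 2 farthest libraries, although many Csf3 values rested on fewer than 10 counts. Csf1 had r = 0.42 with the fibroblast list (adjusted permutation p = 0.036), but rho = 0.18 (adjusted permutation p = 0.48). Its r was 0.42 without the 2 farthest libraries, 0.71 within the dose experiment, -0.37 within the DC-101 experiment and 0.54 within the anti-PD1 experiment. Il34 had r = -0.03 with the hepatocyte list (rho = 0.04), with adjusted permutation p-values of 0.88 and 0.83, and r was -0.41, 0.13 and 0.21 within the experiments. All points of a relation share the library and its scaling.

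The genes most like each member over the 32 libraries, out of 13549 protein coding genes tested in all 3 experiments, are given as a description with Pearson r and no test. Csf1r was most like P2ry6 (0.963), a nucleotide receptor, Arrb2 (0.954), an arrestin, and Laptm5 (0.953), a lysosomal protein of blood cells. Csf2ra was most like Fes (0.946), a myeloid tyrosine kinase, Nfam1 (0.911) and Plcg2 (0.901), a phospholipase of the CSF1R signaling list. Csf2rb was most like its neighbor Csf2rb2 (0.914), with which it shares sequence, and then Cmklr1 (0.866), the chemerin receptor, and Rnf157 (0.809). Csf3r was most like Dennd1c (0.876), Oas2 (0.875), an interferon-induced gene, and Nod2 (0.866), a sensor of bacterial peptidoglycan. Csf1 was most like Nptxr (0.934), Fhod1 (0.925) and March9 (0.914), none of which was on a cell type list used here. Il34 had lower values throughout, with Nol4 (0.744), Spink2 (0.733) and Arsj (0.721).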

How the data were processed

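Tumor RNA was prepared with a stranded mRNA kit. Per the study's methods and the labels, the authors trimmed reads with cutadapt 2.4, aligned them to GRCm38 with STAR 2.7.2a and deposited raw counts per Gencode gene; the strand column taken is not stated in the sources used here. Of 54446 gene identifiers, 54409 (99.93%) matched the annotation used for coordinates and exon lengths. Here the counts (16.8 M to 27.7 M per library) were filtered with filterByExpr (minimum count 10, total 15), scaled by TMM and tested with the robust quasi-likelihood F-test of edgeR 4.0.16 in R 4.3.3, all groups of an experiment together. A fit over 3 experiments had the experiment as a term. Benjamini-Hochberg adjustment covered all tested genes. The authors' own normalized values were not used.

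The members and gene lists were chosen with earlier results of these data known. Genes named besides the members were the 3 most like each member, at most 3 genes of smallest p per comparison from the CSF1R, beta common and G-CSF receptor and inducer lists, Csf2rb2, and others stated as chosen after their values were seen; 1 gene is not reported here. The other lists (macrophage, Kupffer cell, monocyte, neutrophil, dendritic cell, T and NK cell, endothelial, fibroblast, hepatocyte, myeloid transcription factors, IL-34 alternative receptors, class III kinases) are given by count and median. Alternatives were DESeq2 1.42.0, limma-voom (limma 3.58.1), RLE scaling, no filter, the replicate number as a block, a hepatocyte covariate and leaving out libraries or experiments; relations used 100000 permutations. Libraries of a group were checked for duplication, and none was. The code was tested on simulated data.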

Additional observations from a re-analysis of the deposited data

Results flagged for a closer look

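Among the vehicle groups of 4 tumors, 16 member and group combinations were checked for a tumor that stood apart by Dixon's ratio (critical value 0.829), and 3 were found; chance gives such a finding in about 5% of groups. Vehicle replicate 2 of the dose experiment had the lowest Csf1 level (8.52 log2 CPM, ratio 0.928) and the lowest Csf2ra level (4.47 log2 CPM, ratio 0.952) of its group. Vehicle replicate 1 of the DC-101 experiment had the highest Il34 level of its group (4.31 log2 CPM, ratio 0.876).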

How the results depend on the processing

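Whether replicate numbers paired the tumors was not settled. Of tumors that carried one number in different groups, 2 of 9 pairs (dose), 4 of 9 (DC-101) and 6 of 18 (anti-PD1) had residuals with r over 0.1. The r values ran from -0.72 to 0.56, from -0.46 to 0.67 and from -0.28 to 0.62 in that order. Groups of 3 or 4 tumors are too small for these values to decide on pairing. With the replicate number as a block, 0 members passed at 20 mg/kg/day in either comparison (Csf1r -1.68 and Csf2ra -1.17 against vehicle, adjusted p 0.192 for both) and 1, Csf1, passed at 5 mg/kg/day over the 3 experiments. At 20 mg/kg/day against vehicle 1 member passed with no filter and 0 with the hepatocyte covariate. DESeq2 called 1 member, Csf1, at 5 mg/kg/day in the DC-101 experiment (beside 6.8% of all genes) and 2, Csf1 and Il34, over the 3 experiments (beside 5.73%), where 1 passed with edgeR without the anti-PD1 experiment. Centered on the group mean, Csf3r with the neutrophil list had r = 0.44 with an unadjusted permutation p of 0.026. Leaving out single libraries, the number of members called was 0 to 3 in both comparisons of 20 mg/kg/day, 0 to 1 at 5 mg/kg/day over the 3 experiments and 0 elsewhere, and the share of all genes called at 20 mg/kg/day was 0.091% to 41.1% against vehicle and 0.361% to 26.3% against 5 mg/kg/day. The cause of these changes was not tested. Depth limits Csf2 and Csf3.

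No member change called in the reported fits changed sign under the alternatives run. Among those not called there, signs turned in these cases. With the hepatocyte covariate, against vehicle Csf1 was at 0.25 at 20 mg/kg/day, Csf2rb at 0.04 with DC-101, Csf1r at -0.46 and Csf3r at -0.48 with regorafenib in the anti-PD1 experiment, Csf1r at -0.20 with anti-PD1 and Csf2ra at -0.09 with the combination; Il34 was at 0.03 for 20 against 5 mg/kg/day and Csf2rb at 0.39 for the combination against anti-PD1. With the block, against vehicle Il34 was at -0.02 and Csf2rb2 at -0.13 at 20 mg/kg/day, Csf2rb at 0.04 with DC-101, Csf2ra at 0.02 and Csf3r at 0.07 with anti-PD1 and Csf3 at 0.03 with the combination. With limma-voom Csf2rb2 was at -0.30 at 20 mg/kg/day, Csf2ra at 0.04, Csf3 at 0.01 and Csf3r at 0.04 with anti-PD1, and Csf3 at 1.16 with the combination. Over the 3 experiments Csf2ra was at -0.12 without the dose experiment and Csf2rb at 0.15 without the anti-PD1 experiment.

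Leaving out single libraries turned signs within these ranges. At 20 mg/kg/day against vehicle Csf1 was from -0.63 to 0.23, Il34 from -0.08 to 0.47, Csf2rb from -1.10, called without replicate 2 at 20 mg/kg/day, to 0.09 and Csf2rb2 from -1.05 to 0.46, and against 5 mg/kg/day Il34 was from -0.35 to 0.20 and Csf2rb2 from -1.49 to 0.03. In the DC-101 experiment, Csf1r was from -0.21 to 0.05 for regorafenib against vehicle; DC-101 against vehicle gave Csf1r from -0.16 to 0.29, Csf2ra from -0.10 to 0.35, Csf2rb from -0.13 to 0.06 and Csf3r from -0.25 to 0.62, and regorafenib against DC-101 gave Csf1r from -0.41 to 0.05, Il34 from -0.01 to 0.29 and Csf3r from -0.15 to 1.03. In the anti-PD1 experiment, regorafenib gave Csf1r from -0.14 to 0.56, Csf2ra from -0.79 to 0.23, Csf3 from -1.65 to 1.82 and Csf3r from -0.33 to 0.64, anti-PD1 gave Csf2ra from -0.53 to 0.50, Csf2rb from -0.43 to 0.01, Csf3 from -2.46 to 1.66 and Csf3r from -0.56 to 0.40, the combination gave Csf2ra from -0.32 to 0.71 and Csf3 from -1.03 to 2.44, and the combination against anti-PD1 gave Csf2rb from -0.27 to 0.14. Over the 3 experiments Csf2ra was from -0.03 to 0.27 and Csf2rb from -0.12 to 0.02.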
